A study of Homo sapiens with 32 samples.

Results

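Azacitidine at 250 nM was compared with no drug in 4 human T-cell lines. The comparison used 8 of the 32 RNA-seq libraries of the series, and they were taken by their titles: the 4 that carry 250 nM azacitidine and no romidepsin, and the 4 untreated ones, paired by cell line. HH and H9 come from cutaneous T-cell lymphomas, PF382 from a T-cell acute lymphoblastic leukemia and TLOm1 from a leukemia of the adult T-cell type. Cells in log phase were grown for 96 hours. Azacitidine was renewed daily, and no genetic change is given for any line. Each line gave 1 library per treatment, so a line is the replicate (n = 4) and each line is a single model of its disease. The dose of 250 nM was the highest given to HH and H9 and the middle one for PF382 and TLOm1, which were also given 500 nM. The other libraries held romidepsin, a histone deacetylase inhibitor, or other azacitidine doses, and 8 of them gave a second measurement of the same azacitidine dose on top of romidepsin.

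Azacitidine is a ribonucleoside analogue of cytidine. Cells take it up through nucleoside transporters and phosphorylate it with uridine-cytidine kinases, and much of it enters RNA. A part is reduced by ribonucleotide reductase to the deoxy form and enters DNA, where it binds DNA methyltransferases covalently, so that methylation is lost as cells divide. Promoter methylation is a known means by which body cells keep germline genes silent, among them the cancer testis antigens, proteins of the testis that also appear in tumours. DNA methylation was not measured in these libraries, which show RNA only.

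Each of 3 germline promoters is shown because the largest increases were in genes of this kind. They run from 250 bases before to 50 after the gene's start in RefSeq (GRCh38.p14) and are printed 5′ to 3′ on the gene's strand. MAGEA4 lies on chromosome X (chrX:151912224-151912523, plus strand), BRDT on chromosome 1 (chr1:91949121-91949420, plus strand) and TDRD1 on chromosome 10 (chr10:114179037-114179336, plus strand). Capitals mark CG pairs, the bases that DNA methyltransferases modify, in MAGEA4, and the motif CACGTG in BRDT and TDRD1. MAGEA4 held 10 CG pairs (observed over expected 0.35), BRDT 21 (0.87) and TDRD1 17 (0.75), where the median over all 27305 promoters of the table was 14 (0.58).
MAGEA4: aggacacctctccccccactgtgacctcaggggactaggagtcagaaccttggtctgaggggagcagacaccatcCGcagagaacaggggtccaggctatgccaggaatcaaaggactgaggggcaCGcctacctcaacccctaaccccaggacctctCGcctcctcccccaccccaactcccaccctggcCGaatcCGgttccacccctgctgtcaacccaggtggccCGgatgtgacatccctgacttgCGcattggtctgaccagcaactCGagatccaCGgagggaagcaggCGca
BRDT: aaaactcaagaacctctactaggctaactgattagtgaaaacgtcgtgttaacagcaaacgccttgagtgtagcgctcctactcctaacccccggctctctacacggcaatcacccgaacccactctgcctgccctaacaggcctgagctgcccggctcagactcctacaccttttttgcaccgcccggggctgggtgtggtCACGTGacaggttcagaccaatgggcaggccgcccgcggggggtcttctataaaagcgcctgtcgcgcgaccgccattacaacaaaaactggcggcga
TDRD1: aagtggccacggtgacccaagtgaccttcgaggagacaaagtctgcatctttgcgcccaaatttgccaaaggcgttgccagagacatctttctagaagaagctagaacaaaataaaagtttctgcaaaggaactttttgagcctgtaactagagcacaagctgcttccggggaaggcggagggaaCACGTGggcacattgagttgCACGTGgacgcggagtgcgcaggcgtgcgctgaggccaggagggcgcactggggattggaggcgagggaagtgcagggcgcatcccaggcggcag

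Azacitidine at 250 nM raised 685 of the 17801 tested genes (3.85%) and lowered 381 (2.14%), together 5.99%. Calls here rest on edgeR's quasi-likelihood test, run over all 32 libraries with cell line as a term, at a Benjamini-Hochberg adjusted p below 0.05. Each change is given as a fitted log2 fold change ± its standard error from that fit of 32 libraries (n = 4 lines per group). This error is not the spread of the 4 differences between paired libraries. The increases were larger than the decreases. The median change of the called genes was 1.56 for those that rose and -0.55 for those that fell, and 379 of the 685 rose at least 2-fold against 73 of the 381 that fell that far. Of the called genes, 511 of 685 rose in 4 of 4 lines and 348 of 381 fell in 4 of 4 lines. The spread was pooled over all 32 libraries. When only the 8 compared libraries were fitted, edgeR called 0 genes, with 2261 at an unadjusted p under 0.05. DESeq2 on the same 8 libraries called 553 higher and 330 lower, and limma-voom 48 and 26, both tried after the data had been seen. Leaving out 1 line left 464 higher and 214 lower without PF382, 355 and 251 without TLOm1, 270 and 200 without HH, and 335 and 111 without H9.

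**Figure D1:**
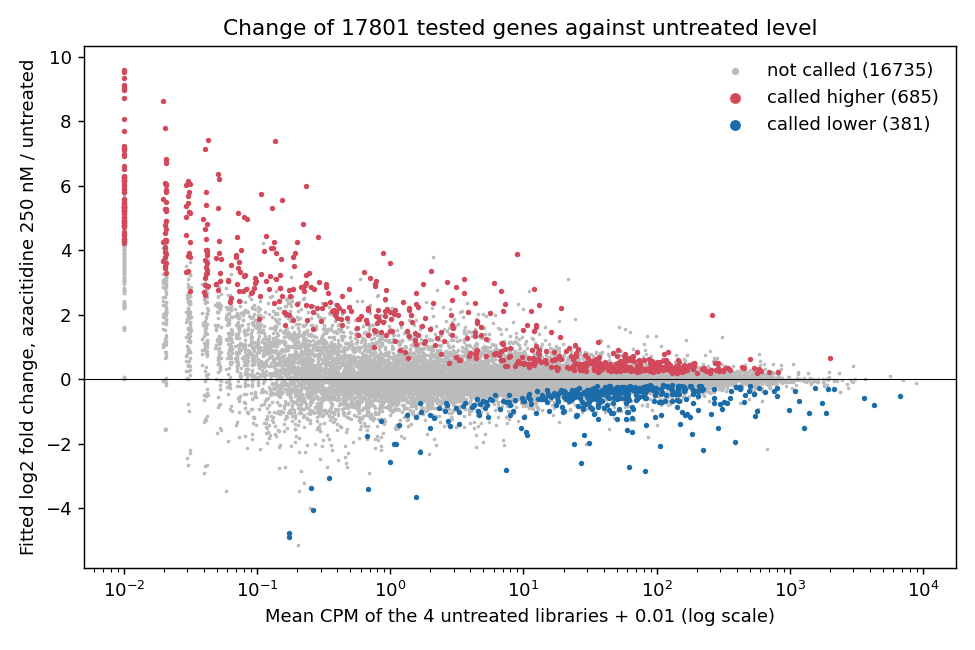
Fitted log2 fold change (azacitidine 250 nM over untreated, vertical axis) of each of 17801 tested genes against the mean CPM of the 4 untreated libraries (horizontal axis, log scale, 0.01 added); red points are the 685 genes called higher, blue the 381 called lower and grey the rest. The red points reach far left, to genes with hardly a read in untreated cells, while the blue ones lie mostly to the right.

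The genes that rose and the genes that fell started from different levels. The median untreated level was 2.66 CPM (a gene's count as a share of its library, with TMM scaling) for the 685, 45.2 CPM for the 381 and 15.4 CPM for all tested genes. Of the 685, 220 (32.1%) had under 10 counts in each of the 4 untreated libraries, against 8.16% of all tested genes, and 75 had no count in any of them. A gene this low could pass the filter on low counts only through libraries where it was higher, so these counts are a description. None of the 381 was that low (0). These are bulk measurements, in which fewer cells with a transcript and less of it per cell cannot be told apart.

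The 8 libraries held between 22914158 and 27538021 counts. Of 10 T-cell markers, 10 had at least 10 counts in untreated PF382 and H9, and 8 in TLOm1 and HH. BCL11B was the only one of them called, and it fell. Their summed level ran from 618 CPM (TLOm1) to 2402 CPM (PF382) untreated and from 520 to 2453 CPM treated. TLOm1 had 3 counts of CD3G untreated and HH had 0 of LCK, so these lines lack some of the defining markers. LCK was present in untreated TLOm1, at 33 counts. Of the other cell type lists, 10 B-cell, 7 myeloid, 3 erythroid or megakaryocyte, 9 fibroblast and 7 epithelial markers could be tested. Of these, 0, 1, 0, 0 and 2 were called higher and 0 lower in each list. Over all tested genes 3.85% rose and 2.14% fell. The myeloid gene was MPO, with 0 counts in 4 untreated libraries and 22, 0, 5 and 0 treated (in the order PF382, TLOm1, HH and H9, used throughout). It passed the filter on low counts only through libraries where it was higher. Its adjusted p was 0.0123, and 0.0637 without HH, and it could not be tested without PF382. The epithelial ones were the keratins KRT8 and KRT18. The part of other cells in any result was not tested.

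X-linked cancer testis antigens rose from near silence. Of 98 such genes in the files, 43 could be tested, and 29 of them rose, where 3.85% of all tested genes rose. In 71 of the 98 no untreated library held a count, so most of the 43 passed the filter on low counts only through libraries where they were higher and had no room to fall. The number that rose is therefore a description. The genes with at least 10 counts went from 0 to 19 in PF382, from 1 to 33 in TLOm1, from 3 to 22 in HH and from 1 to 8 in H9. Their summed level went from 0.776 to 45.6 CPM in PF382, from 74.4 to 203 in TLOm1, from 22.0 to 130 in HH and from 35.9 to 68.1 in H9. The untreated sum in TLOm1 was almost all MAGEB2 (1722 counts). H9 thus showed the fewest of these antigens after treatment. In all, 38 of the 98 had no count in any of the 8 libraries. Without TLOm1 16 of the 38 antigens that could then be tested were called. Without another line between 22 and 26 were called, of 45 or 46 tested.

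MAGEA4, a MAGE protein of a family that binds ubiquitin ligases, had 1, 0, 0 and 0 counts untreated and 66, 105, 160 and 11 treated. It was higher in 4 of 4 lines, and the ratio of the summed counts was 331 (95% counting interval 59.1 to 13128). MAGEA1 had 0 counts in each untreated library and 88, 174, 120 and 0 treated, at least 123-fold higher against a floor of 3 counts over the 4 untreated libraries. CTAG2, a relative of the antigen NY-ESO-1, went from 0 in each to 140, 72, 121 and 0, at least 108-fold higher. H9 therefore gave no read of either gene. SSX1, of a family of transcriptional repressors, had 0, 0, 3 and 0 counts untreated and 19, 475, 196 and 6 treated. SSX3 of the same family had 3, 0, 0 and 0 and then 53, 299, 159 and 23. The ratios of summed counts were 225 (interval 76.6 to 1093) and 172 (58.7 to 839), and TLOm1 was the highest treated library for both. PAGE5 had 1, 2, 1 and 8 counts untreated and 301, 62, 56 and 123 treated, a rise of 5.30 ± 0.60 (adjusted p = 9.55e-06) in which the groups did not overlap. MAGE and SSX genes are near copies of each other, so reads may have been split or lost between them in the authors' counting.

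Germline genes outside that set rose as well, and they include parts of the pathway that guards the germline against transposons. Of 81 in the files, 57 could be tested: 17 rose (BRDT, CTCFL, TDRD1, MAEL, SOHLH1, DAZL, TDRD12, PIWIL2, HENMT1, STK31, RNF17, STAG3, HORMAD1, TEX11, TEX101, PRAME and TUBA3D) and 0 fell. Of all tested genes 3.85% rose and 2.14% fell. Members near 0 in untreated cells passed the filter in the same way. Without HH 9 were called, and without another line 15 or 16. BRDT, the testis bromodomain protein that reads acetylated histones, went from 0, 2, 0 and 2 counts to 145, 60, 53 and 138, a rise of 6.37 ± 0.50 (adjusted p = 8.37e-08). All 4 treated libraries lay far above all 4 untreated ones, and H9 was as high as PF382. MAEL, which acts in transposon silencing with PIWI proteins, went from 10, 1, 1 and 2 counts to 248, 381, 148 and 8, a rise of 5.57 ± 0.76 (adjusted p = 0.000128). H9 at 8 counts stayed below untreated PF382, so the groups overlap. TDRD1, a Tudor protein that binds PIWI proteins, went from 0, 1, 0 and 0 to 53, 23, 12 and 1 counts (ratio of sums 86.2, interval 15.1 to 3444). CTCFL, the testis paralogue of CTCF, went from 1, 2, 0 and 0 to 54, 63, 77 and 1 (63.0, interval 21.2 to 308). SOHLH1, a basic helix-loop-helix factor of early germ cells, went from 0, 0, 1 and 0 to 0, 68, 10 and 17 (92.1, interval 16.1 to 3674), and its call was lost without TLOm1 (adjusted p = 0.053). H9 was the lowest treated library for MAEL, TDRD1 and CTCFL.

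Promoter sequences were found for 15 of the 17 germline genes that rose. The motif CACGTG, an E-box that reads the same on both strands, was in 6 of the 15 (40.0%), BRDT and TDRD1 among them, against 14 of the 70 promoters found for the whole germline list, called or not, and 7.43% of all 27305. GGCGGGAA, an E2F-type site searched on both strands, was in 1 of 15. The median ratio of observed to expected CG pairs was 0.75 in these 15 promoters and 0.74 in the 70. For the X-linked antigens 23 of 29 matched and for all 685 genes that rose 485 (70.8%), under the 80% needed, so sequence values over those sets are not given. The same holds for all tested genes, of which 70.1% matched.

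**Figure D2:**
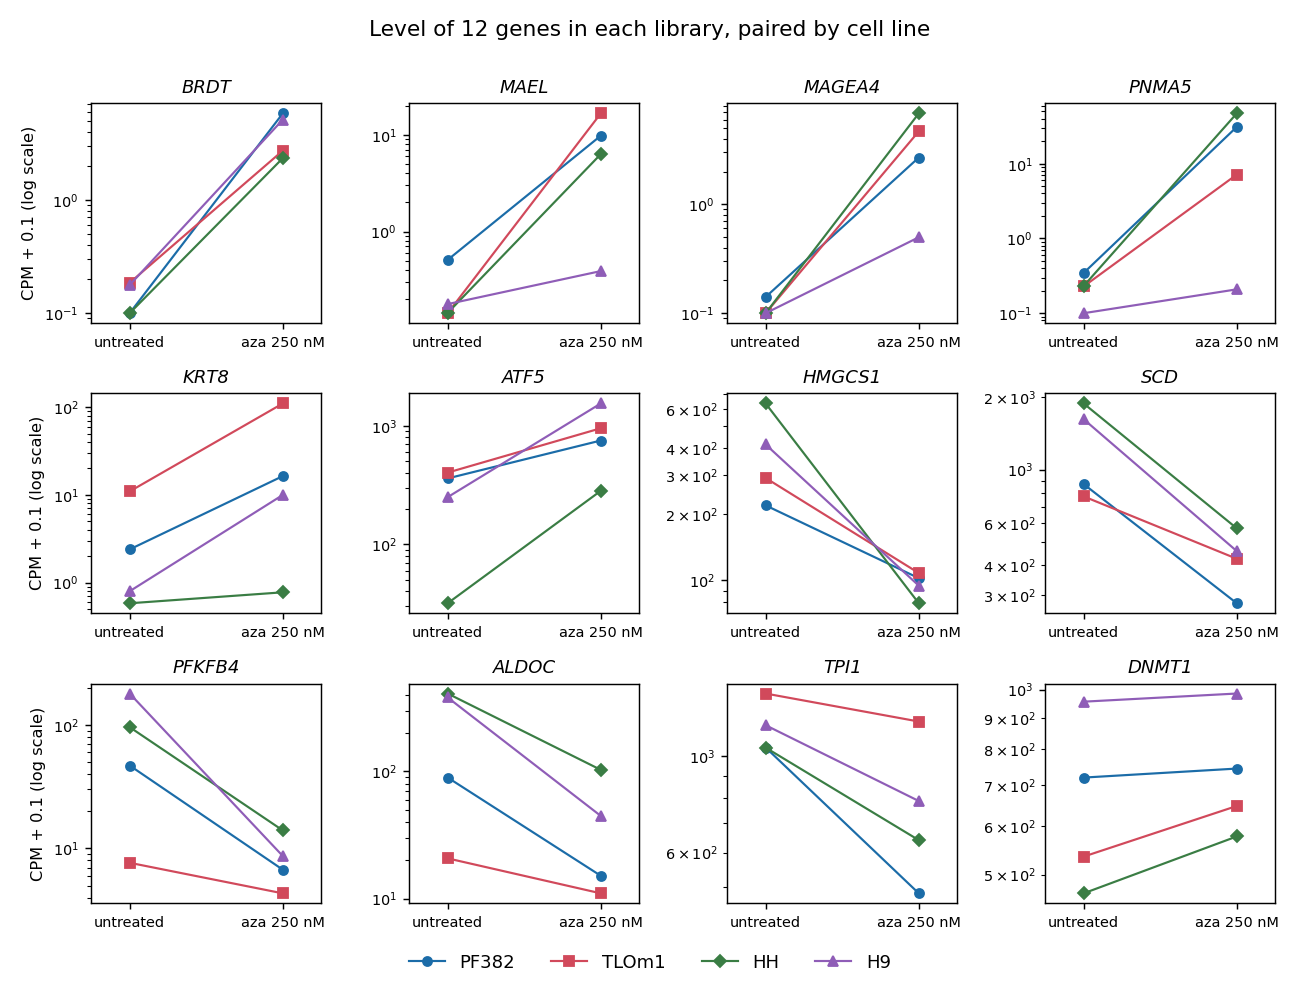
CPM plus 0.1 (log scale, each panel with its own range) of 12 genes in the untreated and the azacitidine 250 nM library of each cell line, with a line joining the libraries of 1 cell line. BRDT rises in 4 of 4 lines from 0.09 CPM or less, MAEL, MAGEA4 and PNMA5 rise least in H9, KRT8 hardly moves in HH, and HMGCS1, SCD, PFKFB4, ALDOC and TPI1 fall in 4 of 4 lines.

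The genes with the smallest p also included some with no place in the germline lists. PNMA5, of a family derived from retroviral Gag, went from 6, 3, 3 and 0 counts to 791, 162, 1118 and 3, a rise of 7.38 ± 0.67 (adjusted p = 7.07e-07), and it was the only called gene of 21 in the list of Gag-derived and retroviral genes. H9 was again the exception in size for PNMA5. Over all tested genes 3.85% rose, so the count for that list is near this share. RAB13, a small GTPase of membrane traffic, went from 6, 3, 8 and 1 counts to 217, 139, 25 and 39 (4.26 ± 0.45, adjusted p = 5.7e-06). DCAF4L1 went from 18, 30, 32 and 7 to 247, 122, 224 and 49 (2.77 ± 0.30, adjusted p = 7.15e-06). The treated libraries of both genes were all above the untreated ones. GLDN, the gliomedin of nodes of Ranvier, went from 6, 0, 0 and 0 to 129, 6, 1 and 7 counts (4.41 ± 0.47, adjusted p = 8.52e-06), and SEC16B, a factor of export from the endoplasmic reticulum, from 0, 1, 0 and 1 to 1, 85, 8 and 46 (ratio of sums 67.8, interval 18.4 to 566). The groups overlap for both. LOC100129291 had 2, 1, 1 and 0 counts untreated and 53, 151, 137 and 9 treated, a rise of 6.20 ± 0.56 (adjusted p = 7.07e-07). The ratio of summed counts was 99.8 (interval 27.3 to 830) for LOC100129520, 69.3 (18.8 to 578) for LOC100289211 and 50.4 (13.6 to 422) for LOC219731, each from 2 counts untreated, and LOC100506405 rose by 5.32 ± 0.73 (adjusted p = 0.000128). The function of these loci is not given here.

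Only 2 genes went from under 10 to at least 50 counts in 4 of 4 lines, BRDT and PAGE5. A further 9 did so in 3 lines, 31 in 2 and 197 in 1. By line the count was 51 genes in PF382, 106 in TLOm1, 105 in HH and 32 in H9. The tested genes under 10 counts in the untreated library numbered 3682, 4096, 4321 and 3782. In the reverse direction, from at least 50 to under 10 counts, there were 2, 1, 1 and 13 genes. Chromosome X held 20.2% of the genes that rose from under 10 counts in each untreated library and matched a RefSeq name (40 of 198), against 7.82% of tested genes with the same low start. Among the other genes that rose it held 3.52% (16 of 455), close to the 3.69% of all tested genes. All 29 called X-linked cancer testis antigens lie on this chromosome, so the 20.2% in part restates that list. Genes with so low a start passed the filter on low counts only through libraries where they were higher, so these shares are a description.

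Genes of sterol synthesis fell together. Of 27 tested, 21 fell and 0 rose, where 2.14% of all tested genes fell, and the median change was -0.79. Each of the 21 fell in 4 of 4 lines, by 0.36 to 1.95 on the log2 scale. The summed level fell from 3227 to 2144 CPM in PF382, from 4912 to 3288 in TLOm1, from 7422 to 3430 in HH and from 4252 to 2255 in H9. HH started highest and had the largest median change (-1.26), and PF382 the smallest (-0.42). Without H9 13 of the genes were called, and without another line between 14 and 19.

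HMGCS1, the synthase that makes HMG-CoA, had 219, 291, 635 and 414 CPM untreated and 102, 108, 78.7 and 94.6 CPM treated (-1.95 ± 0.33, adjusted p = 0.000906). The treated libraries were alike while the untreated ones were not, and the groups did not overlap. FDFT1, squalene synthase, went from 398, 392, 836 and 560 to 242, 200, 294 and 211 CPM (-1.15 ± 0.18, adjusted p = 0.000364), also without overlap. DHCR7, which makes cholesterol from its last precursor, changed by -1.17 ± 0.20 (adjusted p = 0.00122), MVD, a decarboxylase of the mevalonate pathway, by -1.03 ± 0.16 (adjusted p = 0.000387), and LSS, lanosterol synthase, by -0.73 ± 0.12 (adjusted p = 0.000685). Chosen for its role after its values were seen, SREBF2, the transcription factor that drives sterol genes, changed by -0.36 ± 0.10 (adjusted p = 0.0302). PMVK, CYP51A1, TM7SF2, EBP, SCAP and NPC1L1 did not pass the test.

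In fatty acid synthesis 4 of 16 tested genes fell and 0 rose (median -0.31), where 2.14% of all tested genes fell and 3.85% rose. SCD, the desaturase that makes oleate, had 871, 774, 1886 and 1622 CPM untreated and 278, 425, 569 and 458 CPM treated (-1.52 ± 0.20, adjusted p = 0.000118). Every treated library was below every untreated one. LOC100652751 changed by the same amount (-1.51 ± 0.20), but its counts were 21.9% to 23.3% of those of SCD in each library, so it may share reads with SCD. ACACA, acetyl-CoA carboxylase, changed by -0.46 ± 0.06 (adjusted p = 0.000107) and ACLY, which makes acetyl-CoA from citrate, by -0.40 ± 0.08 (adjusted p = 0.00323). FASN, fatty acid synthase, changed by -0.36 ± 0.10 (adjusted p = 0.0287), and that call was lost without any 1 line (adjusted p from 0.0594 without PF382 to 0.141 without HH).

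Genes of the hypoxia response and of glycolysis fell in 3 of the 4 lines more than in the other. The list holds glucose transporters, the enzymes from hexokinase to lactate dehydrogenase, and targets of hypoxia-inducible factors. Of 45 tested, 23 fell and 0 rose, where 2.14% of all tested genes fell and 3.85% rose. A negative estimate was found for 40 of the 45, and the median was -0.74. The median change was -1.04 in PF382, -0.13 in TLOm1, -0.71 in HH and -0.88 in H9. The summed level went from 21891 to 12200 CPM, from 26641 to 22781, from 24137 to 14383 and from 30145 to 15536. In 8 of the 45 the azacitidine effect, taken over all doses, was unequal over the lines, against 10.7% of all tested genes. Without PF382 11 were called lower, without HH 13 and without H9 8, while without TLOm1 it was 26.

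**Figure D3:**
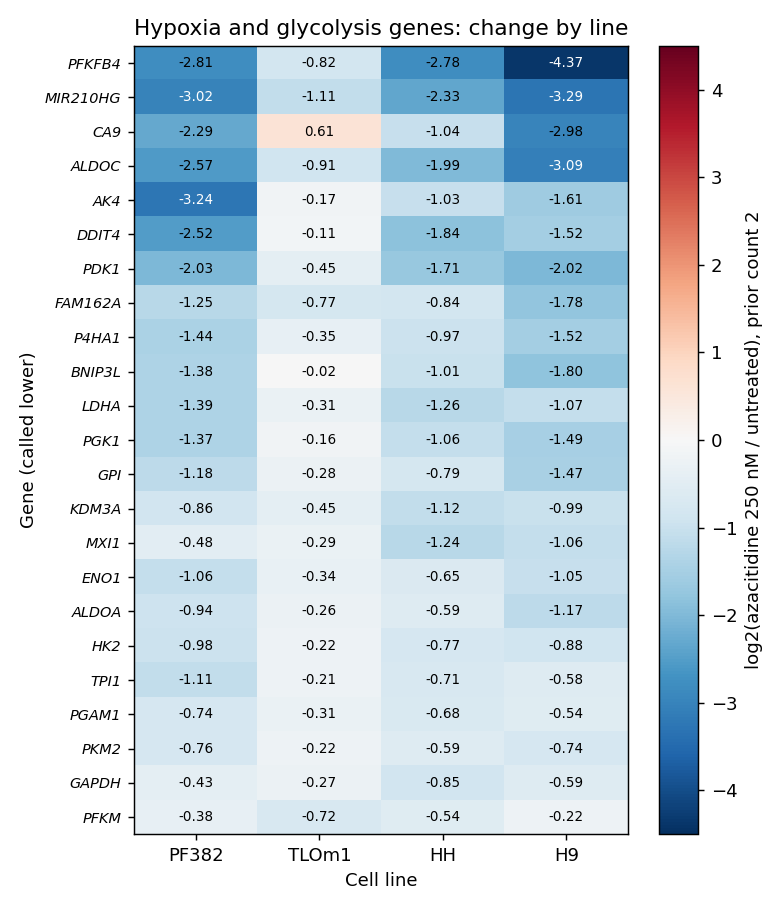
Log2 ratio of azacitidine 250 nM to untreated (prior count 2) in each cell line for the 23 genes of the hypoxia and glycolysis list that were called lower, ordered by fitted change; blue is lower, red higher, and the ratio is printed in each cell. The TLOm1 column is the palest, from -1.11 for MIR210HG to 0.61 for CA9.

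ALDOC, an aldolase, had 89.3, 20.6, 408 and 380 CPM untreated and 15.02, 10.9, 103 and 44.5 CPM treated (-2.19 ± 0.42, adjusted p = 0.00321). The kinase and phosphatase PFKFB4, through whose product glycolysis is activated, had 46.8, 7.55, 95.8 and 179 CPM untreated and 6.63, 4.23, 13.9 and 8.58 treated (-2.85 ± 0.72, adjusted p = 0.021). TLOm1 had the lowest untreated level of both, and the groups overlap. The call of PFKFB4 was lost without PF382 (adjusted p = 0.0911), HH (0.0998) or H9 (0.121). The glycolytic enzymes PFKM (-0.47 ± 0.08, adjusted p = 0.00114), PKM2 (-0.58 ± 0.11, adjusted p = 0.00194), TPI1 (-0.68 ± 0.13, adjusted p = 0.00214) and ALDOA (-0.74 ± 0.14, adjusted p = 0.00296) fell in 4 of 4 lines and kept their calls without each line. DDIT4, an inhibitor of mTORC1 induced by hypoxia, had 155, 82.3, 43.2 and 458 CPM untreated and 27.0, 76.5, 12.04 and 160 treated (-1.70 ± 0.47, adjusted p = 0.0346). It was lost without PF382 (adjusted p = 0.189), HH (0.125) or H9 (0.142). MIR210HG, the host transcript of the hypoxia-induced miR-210, had 31.1, 5.55, 43.5 and 27.6 CPM and then 3.76, 2.53, 8.59 and 2.75 (-2.60 ± 0.74, adjusted p = 0.0384), lost without PF382 (0.182), HH (0.0969) or H9 (0.175). The transcripts of the factors themselves, named for their role after their values were seen, did not pass the test: HIF1A was at -0.02 ± 0.11, EPAS1 at 0.11 ± 0.55.

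Promoters of 22 of these 23 genes were found. ACGTG, the core of the site bound by hypoxia-inducible factors, searched on both strands and including every CACGTG, was in 13 of the 22 (59.1%), against 46.3% of the 41 promoters found for the whole list (19 of 41), called or not, and 21.6% of all 27305. The list holds many known targets of these factors. The promoters of DDIT4 (chr10:72273674-72273973, plus strand) and MIR210HG (chr11:568408-568707, minus strand) are shown as examples that hold the motif. They come from RefSeq (GRCh38.p14) with the same window as above and the motif in capitals. ALDOC and ALDOA held it too, while PFKFB4, PFKM, PKM2 and TPI1 did not. A match describes the letters and does not show that a factor binds there.
DDIT4: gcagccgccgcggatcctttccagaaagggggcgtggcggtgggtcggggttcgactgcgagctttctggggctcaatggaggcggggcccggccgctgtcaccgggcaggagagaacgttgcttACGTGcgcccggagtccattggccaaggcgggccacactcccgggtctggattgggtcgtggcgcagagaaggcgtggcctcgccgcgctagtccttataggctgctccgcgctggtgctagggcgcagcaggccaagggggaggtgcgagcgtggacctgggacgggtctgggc
MIR210HG: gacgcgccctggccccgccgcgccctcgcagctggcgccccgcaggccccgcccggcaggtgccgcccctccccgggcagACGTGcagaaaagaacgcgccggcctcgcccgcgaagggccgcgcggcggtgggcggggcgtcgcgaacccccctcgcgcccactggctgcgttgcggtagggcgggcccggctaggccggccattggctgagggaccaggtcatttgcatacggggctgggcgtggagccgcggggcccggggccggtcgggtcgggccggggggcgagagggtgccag

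Other genes with the largest or most certain falls belong to none of these lists. LINC00263, a long noncoding RNA, had 603, 727, 926 and 453 counts untreated and 211, 295, 262 and 93 treated (-1.74 ± 0.20, adjusted p = 9.55e-06), with no overlap. LMF1, which matures lipases, changed by -1.51 ± 0.21 (adjusted p = 0.000161), TMEM135, a protein of mitochondria and peroxisomes, by -0.75 ± 0.09 (adjusted p = 5.22e-05) and ECI2, an isomerase of the oxidation of unsaturated fatty acids, by -0.74 ± 0.11 (adjusted p = 0.000199). C6orf223 had 1609, 132, 3201 and 5552 counts and then 431, 67, 793 and 654 (-2.08 ± 0.33, adjusted p = 0.00056), and the kinase WNK4 227, 223, 38 and 580 and then 54, 80, 26 and 112 (-1.74 ± 0.27, adjusted p = 0.000387). DNHD1 (-1.04 ± 0.15), FBXO41 (-0.63 ± 0.09) and SYNE1 (-0.53 ± 0.08), a nesprin of the nuclear envelope, also fell, and each of these 9 fell in 4 of 4 lines.

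Of 33 tested genes of amino acid supply and the ATF4 response, 8 rose and 0 fell, where 3.85% of all tested genes rose, with a median of 0.30. They were ATF5, GPT2, the amino acid transporter subunits SLC1A5, SLC7A5, SLC7A1 and SLC3A2, and the transcription factors DDIT3 and CEBPB. ATF5, a transcription factor of the same family as ATF4, went from 359, 402, 31.7 and 250 to 751, 953, 282 and 1542 CPM (1.98 ± 0.37, adjusted p = 0.00226). It rose in 4 of 4 lines and kept its call without each, though treated HH stayed below 2 of the untreated libraries. GPT2, an alanine transaminase, rose by 1.49 ± 0.31 (adjusted p = 0.00605, and 0.0832 without H9). SLC7A5 rose by 0.62 ± 0.14 (0.00903, and 0.0753 without HH, 0.0786 without H9), SLC3A2 by 0.49 ± 0.12 (0.0179, and 0.0686 without PF382, 0.101 without HH) and SLC1A5 by 0.48 ± 0.10 (0.00722, and 0.0615 without TLOm1, 0.0861 without H9). Without H9 2 genes of the list were called, and without another line 4 or 5. None of 19 genes of the unfolded protein response was called.

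Of the genes that write and erase DNA methylation 1 of 24 was called, and of those that handle the drug 0 of 23, where 5.99% of all tested genes were, so neither count stands apart from that share. DNMT1, the maintenance methyltransferase that azacitidine traps, had 17614, 12527, 10679 and 24741 counts untreated and 18969, 14823, 13699 and 27228 treated (0.17 ± 0.07, adjusted p = 0.138). UHRF1, which brings DNMT1 to newly copied DNA, was the called gene (0.48 ± 0.13, adjusted p = 0.0271), and that call was lost without any 1 line (adjusted p from 0.0628 without PF382 to 0.121 without H9). DNMT3B had 1404, 66, 7 and 1460 counts and then 3232, 74, 8 and 3257 (0.84 ± 0.37, adjusted p = 0.181), a gain seen in PF382 and H9, which had nearly all of it. DNMT3A was at 0.45 ± 0.42 (adjusted p = 0.589), TET1 at -0.58 ± 0.33 (0.319), TET2 at -0.30 ± 0.12 (0.13) and TET3 at -0.25 ± 0.09 (0.115). The fitted changes of drug-handling genes did not pass the test, among them the kinases UCK1 (0.24 ± 0.09) and UCK2 (0.07 ± 0.14), the transporter SLC29A1 (0.20 ± 0.21), the kinase DCK (0.19 ± 0.13), ribonucleotide reductase RRM1 (-0.07 ± 0.09) and RRM2 (0.24 ± 0.11), and the phosphohydrolase SAMHD1 (0.34 ± 0.17). CDA, the deaminase that breaks azacitidine down, had 0 counts in each untreated library and 0, 10, 1 and 0 treated (adjusted p = 0.0751). These levels of RNA do not measure the proteins.

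Silencing factors that act on histones gave 2 higher and 2 lower of 38 tested, near the 3.85% and 2.14% of all tested genes. MORC2, which works with the HUSH complex, rose from 65.1, 47.8, 48.0 and 73.5 to 89.6, 75.3, 72.2 and 108 CPM (0.56 ± 0.08, adjusted p = 0.000128). The change was nearly the same in each line, 0.46 to 0.65. TRIM28, the corepressor of KRAB zinc finger proteins, rose by 0.23 ± 0.06 (adjusted p = 0.0301, lost without any 1 line, 0.082 to 0.128). The demethylase KDM6B fell by 0.62 ± 0.10 (adjusted p = 0.000759), and KDM5B by 1.15 ± 0.34 (adjusted p = 0.0435), a call lost without PF382 (0.186), HH (0.107) or H9 (0.221).

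Of 53 tested interferon-stimulated genes 3 were called higher and 0 lower, near the 3.85% and 2.14% of all tested genes. Their median was 0.23, or 0.13 without HH. IRF7, which switches on type I interferon genes, had 175, 171, 138 and 203 counts untreated and 221, 403, 352 and 594 treated (1.08 ± 0.24, adjusted p = 0.00902, and 0.0721 without HH, 0.125 without H9). HERC6, a ligase induced by interferon, rose by 0.83 ± 0.20 (adjusted p = 0.0147), which was lost without PF382 (0.0654), TLOm1 (0.0928) or H9 (0.051), and XAF1 by 0.76 ± 0.21 (adjusted p = 0.0361), lost without PF382 (0.0791), TLOm1 (0.0838) or H9 (0.176). Of 25 sensors and adaptors of nucleic acids 0 were called. In MHC class I, the peptide transporter subunit TAP2 alone of 28 rose (0.32 ± 0.07, adjusted p = 0.0125, and 0.0655 without HH, 0.14 without H9). In MHC class II 0 of 18 were called, with 17 estimates above 0 and a median of 0.44, or 0.26 without HH.

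Among 44 genes of T-cell receptor signalling and identity 1 rose and 4 fell, against 3.85% and 2.14% of all tested genes. The median was -0.18, or -0.27 without HH, and the calls were 3 higher and 1 lower without PF382 and 1 and 1 without H9. The adaptor LAT rose by 0.85 ± 0.19 (adjusted p = 0.00837, and 0.0655 without TLOm1, 0.0618 without HH). THEMIS, a thymocyte signalling protein, went from 3313, 8, 1362 and 1212 to 1066, 3, 736 and 229 counts (-1.59 ± 0.32, adjusted p = 0.00433, and 0.0569 without PF382). PTPRC, the phosphatase CD45, changed by -0.70 ± 0.17 (adjusted p = 0.0137, and 0.118 without PF382, 0.0547 without HH, 0.149 without H9), PTPN22 by -0.54 ± 0.14 (0.0251, and 0.0902, 0.0681 and 0.124 without the same lines), and the transcription factor BCL11B by -0.47 ± 0.12 (0.0196, and 0.0669 without TLOm1, 0.198 without H9). Of 33 checkpoint and costimulatory genes 2 rose and 2 fell, with the same shares over all genes. CD40LG, the ligand of CD40, had 69, 1, 0 and 4 counts and then 201, 0, 0 and 115 (2.90 ± 0.63, adjusted p = 0.00785, and 0.292 without H9). TNFRSF4, the receptor OX40, went from 11, 20, 4 and 2 to 34, 37, 22 and 76 (2.31 ± 0.53, adjusted p = 0.0112, and 0.0987 without HH, 0.0646 without H9). CD28 changed by -1.004 ± 0.25 (adjusted p = 0.0188, and 0.0742 without HH, 0.293 without H9) and TNFRSF14 by -0.58 ± 0.15 (0.0239, and 0.0883 without PF382, 0.101 without TLOm1, 0.0984 without H9).

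**Figure D4:**
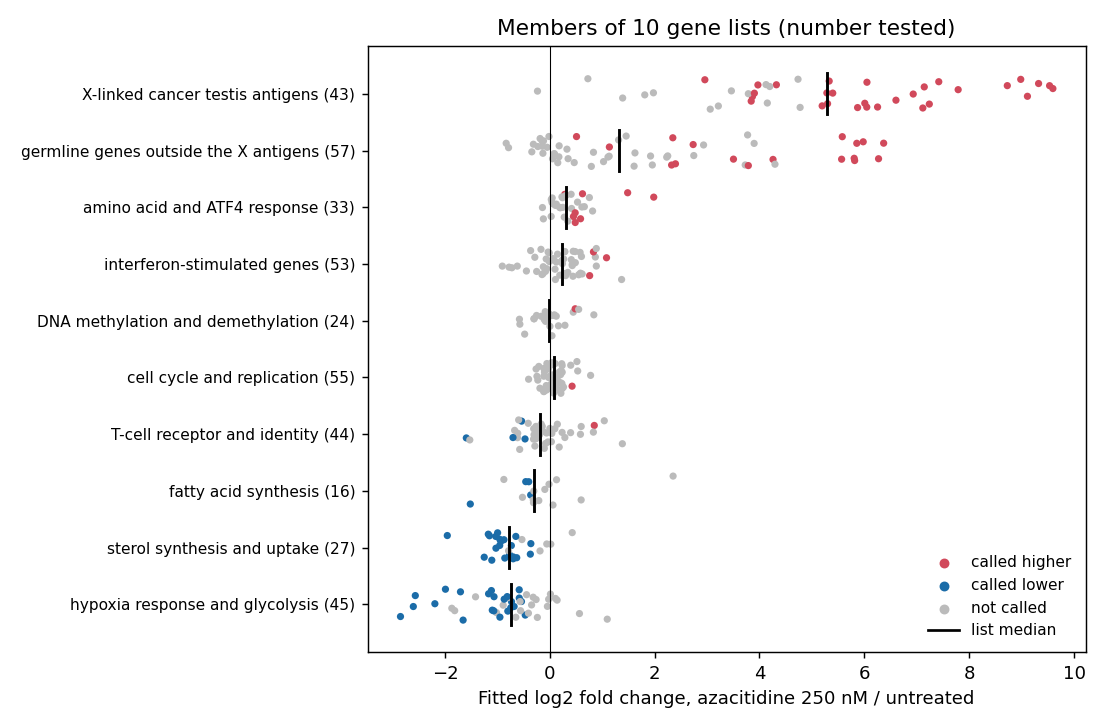
Fitted log2 fold change (azacitidine 250 nM over untreated) of each tested member of 10 gene lists, with the number tested after the name; red is called higher, blue called lower, grey not called, and the black bar is the list median, which in the first lists the low-count filter helps to set. Called members of the first lists lie to the right of 0 and those of the last 3 to the left, while most of the cell cycle list is grey and close to 0.

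Further lists had few called members, where 3.85% of all tested genes rose and 2.14% fell. Of 55 cell cycle genes 1 rose, the kinase TK1 (0.43 ± 0.12, adjusted p = 0.0437, and 0.216 without TLOm1, 0.129 without HH, 0.13 without H9), and of 28 p53 targets 1, PHLDA3 (1.62 ± 0.46, adjusted p = 0.04, lost without any 1 line, 0.0541 to 0.197). None of 31 apoptosis genes and none of 7 metallothioneins was called. MYC, of 32 genes of ribosome biogenesis and MYC, fell by 0.51 ± 0.12 (adjusted p = 0.0115, and 0.0519 without HH, 0.116 without H9), while NSUN5 (0.45 ± 0.08, adjusted p = 0.00226) and POLR1A (0.37 ± 0.09, adjusted p = 0.0144, and 0.0781 without PF382, 0.152 without HH, 0.0991 without H9) rose. H2AFX, 1 of 34 histone genes, rose by 0.35 ± 0.07 (adjusted p = 0.00602, and 0.0833 without TLOm1, 0.0537 without HH). Of 29 cytokines CCL3 fell, from 0, 702, 265 and 0 counts to 0, 185, 99 and 0 (-1.63 ± 0.40, adjusted p = 0.0241, and 0.0868 without PF382, 0.184 without TLOm1).

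Several lineage genes that T cells do not normally use rose, some of them not in every line. KRT8, a keratin of simple epithelia, went from 56, 254, 11 and 18 counts to 415, 2526, 16 and 273 (3.11 ± 0.46, adjusted p = 0.000275), and its partner KRT18 from 57, 2, 0 and 18 to 312, 13, 0 and 331 (3.03 ± 0.56, adjusted p = 0.00223, and 0.133 without H9). HH rose least for KRT8 and had no count of KRT18. PKP3, a desmosome protein, was the third called of 22 tested in that list (3.26 ± 0.92, adjusted p = 0.0358, lost without any 1 line, 0.0553 to 0.151). Of all tested genes 3.85% rose. The summed level of the 10 epithelial markers went from 14.98 to 40.8 CPM, from 52.0 to 165, from 1.31 to 1.43 and from 150 to 233, and EPCAM, with 2482 counts in untreated H9, was at 0 in the other untreated lines. Of 54 HOX and protocadherin genes 5 rose and 0 fell, where 3.85% of all tested genes rose and 2.14% fell. Of the 64 in the files, 16, 22, 7 and 24 had at least 10 counts in the untreated libraries. Members near 0 there could pass the low-count filter only through libraries where they were higher, so these numbers are a description. The 5 were HOXA11, HOXD13, PCDH8, PCDHGA10 and PCDHGA12. DESeq2 called 1 of 50, edgeR without the low-count filter 2 of 64, and leaving out 1 line left 1 (without HH) to 4 (without PF382). HOXD13 had 25, 0, 0 and 12 counts and then 201, 0, 0 and 30 (2.15 ± 0.43, adjusted p = 0.00788, and 0.412 without PF382). PCDH8 rested on HH, with 1 count before and 103 after (adjusted p = 0.0278), and could not be tested without it. HOXA11 (adjusted p = 0.0483), PCDHGA10 (0.0493) and PCDHGA12 (0.0393) each lost the call in at least 3 of the fits without a line. Of 39 neuronal genes 2 rose and 2 fell, near the 3.85% and 2.14% of all tested genes. UCHL1, a deubiquitinase of neurons, had 0 counts in each untreated library and then 1, 14, 1 and 0 (adjusted p = 0.0176, and 0.0526 without PF382, 0.431 without TLOm1, 0.0653 without HH). GRIP2 had 14, 7, 11 and 6414 counts and then 9, 2, 4 and 656 (adjusted p = 0.00842, and 0.312 without H9), and SCN3A 844, 1378, 177 and 0 and then 386, 638, 80 and 1 (adjusted p = 0.0225, and 0.12 without PF382, 0.101 without TLOm1, 0.0692 without H9).

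Of 22 imprinted genes H19 rose and ZDBF2 fell, near the 3.85% and 2.14% of all tested genes. H19 had 0, 0, 0 and 1 counts untreated and 0, 2, 1078 and 11 treated, so HH carried it (adjusted p = 0.182 without HH). ZDBF2 had 491, 598, 345 and 662 counts and then 397, 414, 197 and 423 (-0.60 ± 0.16, adjusted p = 0.0235, and 0.0568 without PF382, 0.0905 without TLOm1, 0.138 without H9). Of 19 genes of cytotoxic and killer cells CST7 and TYROBP rose and KLRG1 fell, with the same shares over all genes. TYROBP, an adaptor of killer receptors, had 2, 0, 1 and 0 counts and then 11, 3, 6 and 53 (adjusted p = 0.0198, and 0.0666 without HH, 0.262 without H9). CST7 had 12, 3, 123 and 240 counts and then 10, 2, 872 and 1205 (adjusted p = 0.0488, lost without any 1 line, 0.0537 to 0.337). KLRG1 had 72, 75, 54 and 50 counts and then 34, 35, 36 and 45 (adjusted p = 0.0396, and 0.224 without PF382, 0.16 without TLOm1, 0.115 without HH).

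Among genes with at least 10 counts in either library, 832 were at least 2-fold higher and 364 lower in PF382, 1179 and 237 in TLOm1, 1066 and 401 in HH, and 748 and 744 in H9, with 1 library on each side and so without a test per line. The median change of the 685 genes that rose was 0.56 in PF382, 0.88 in TLOm1, 0.74 in HH and 0.52 in H9, and that of the 381 that fell -0.43, -0.44, -0.50 and -0.61. The azacitidine effect, taken over all doses with and without romidepsin, was unequal over the lines for 10.7% of all tested genes, for 40 of the 685 (5.84%) and for 11 of the 381 (2.89%). The 6 called genes with the smallest p in that test were MAP3K6, C1orf54, LZTS2, PYCARD, KATNAL2 and CAMK2B. PYCARD, an inflammasome adaptor, went from 125, 796, 14 and 324 counts to 179, 1280, 99 and 495, the largest ratio being in HH. C1orf54 went from 6, 14, 2 and 7 to 17, 158, 22 and 6, a gain of over 100 counts in TLOm1 and none in H9. LZTS2 went from 482, 762, 254 and 1005 to 759, 2193, 687 and 1253. Each of the 6 lost its call at 250 nM in at least 2 of the fits without a line.

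The same dose was also given on top of romidepsin, in 4 libraries that were compared with the 4 of romidepsin alone. That comparison shares no library with the first, although the spread in both comes from the same fit, and HH had 1 nM romidepsin alone but 1.25 nM in the combination. It called 1588 genes higher (8.92%) and 927 lower (5.21%), 14.1% together. Of the 685 genes, 502 (73.3% of them, 31.6% of the 1588) were called higher again and 0 lower, and 684 had the same direction. Of the 381, 250 (65.6% of them, 27.0% of the 927) were called lower again and 0 higher, and 377 had the same direction. Over all tested genes 75.8% had the same direction. Of the 685, 220 had under 10 counts in each untreated library. They passed the low-count filter only through other libraries, which can include those with both drugs. Any of them near 0 on romidepsin alone had little room to fall, so their agreement is a description. The median change on romidepsin was 1.42 for the 685 and -0.45 for the 381.

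**Figure D5:**
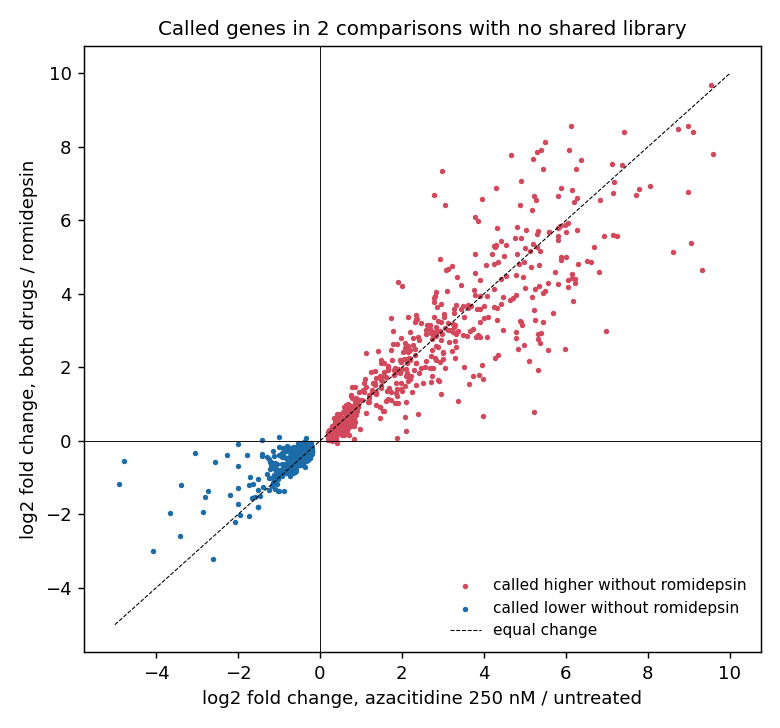
Fitted log2 fold change on romidepsin (both drugs over romidepsin, vertical axis) against that without romidepsin (azacitidine 250 nM over untreated, horizontal axis) for the 685 genes called higher (red) and the 381 called lower (blue) without romidepsin; the dashed line marks equal change. The red points lie above 0 on the vertical axis except 1, and the blue points below 0 except 4.

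By list, 27 of the 43 X-linked antigens, 21 of the 57 other germline genes and 9 of the 33 ATF4 genes rose on romidepsin. There 22 of the 27 sterol genes, 7 of the 16 fatty acid genes and 17 of the 45 hypoxia and glycolysis genes fell. Over all tested genes 8.92% rose and 5.21% fell. Most of the antigens, and germline genes near 0, passed the low-count filter only through libraries where they were higher, so their numbers are a description. Each of the 21 sterol genes called without romidepsin was called again, as were 16 of the 23 hypoxia and glycolysis genes. BRDT changed by 7.64 on romidepsin (adjusted p = 4.79e-09), HMGCS1 by -2.02 (adjusted p = 0.000391) and SCD by -1.80 (adjusted p = 1.08e-05). PFKFB4 (-1.92, adjusted p = 0.0758) and DDIT4 (-0.97, adjusted p = 0.167) were not called there. HOX and protocadherin genes gave 20 higher of 54 on romidepsin, against 5 without it, and whether that differs was not tested. Members of that list near 0 passed the filter in the same way, so these numbers too are a description.

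At 125 nM, compared with the same 4 untreated libraries, 65 genes were called higher (0.365%) and 17 lower (0.0955%), 0.461% together. The 2 doses share their controls, so their values are only set side by side. Of the 43 X-linked antigens 8 were called higher at 125 nM and 29 at 250 nM, and of the 57 other germline genes 2 and 17. None of the sterol genes and none of the hypoxia and glycolysis genes was called lower at 125 nM, where 21 and 23 were at 250 nM.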

How the data were processed

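RNA was sequenced from 32 libraries of 4 cell lines with a stranded mRNA kit, per the labels, which name both poly(A) RNA and rRNA depletion. The authors deposited whole-number counts per gene symbol (25559 symbols). The submitters' processing notes name STAR, DESeq2, limma and GRCh37.p2. The read counter, the gene annotation and any use of strand were not given in the sources used here. One title misspells a cell line, and the cell line label was followed.

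From the deposited counts, edgeR 4.0.16 (R 4.3.3) was run on all 32 libraries: filterByExpr with a minimum count of 10 and a total of 15, TMM, a robust quasi-likelihood fit with group and cell line, and Benjamini-Hochberg adjustment over 17801 genes. Standard errors came from the fold change and the F statistic, with 19 residual degrees of freedom. Libraries of 1 line deviated together (correlations of deviations 0.86 to 0.973 in 60 of 60 pairs), so the line pairs the libraries. Nothing says that cultures were repeated, so p-values measure only the spread between these libraries. Equal effects over lines were tested in a model with a baseline, a romidepsin effect and an azacitidine effect of any dose in each line. CPM are scaled by TMM, and line changes use a prior count of 2. Intervals of count ratios are exact at 95%, scaled by library totals times their TMM factors, and cover counting error only, as does the floor of 3 counts.

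The members, gene lists and tests were chosen with earlier results of these data known. Genes named are the 10 with the smallest p in each direction among called genes moving alike in 4 of 4 lines; the 8 largest changes each way with at least 10 counts in each treated (increases) or untreated (decreases) library; each list's called members, or its 5 with the smallest p in each direction where over 6 were called; 15 genes of methylation and drug handling; and the 6 least equal over lines. A few genes that this rule or a list would give are not reported here. Alternatives used limma 3.58.1 and DESeq2 1.42.0. Promoter letters came from RefSeq on GRCh38.p14, matched by symbol, and no coordinates were converted.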

Additional observations from a re-analysis of the deposited data

Results flagged for a closer look

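In 8 of the 116 named genes the log2 change of 1 line stood apart from the other 3 by a gap to its neighbour that was larger, as a share of the range, than Dixon's 95% limit for 4 values, where chance gives about 1 in 20. For CTAG2 it was H9, at 0 against 5.28 to 6.07. For IRF7 it was PF382, at 0.28 against 1.26 to 1.45. H9 also stood apart for TYROBP (4.59 against 1.36 to 1.64), SCN3A (0.52 against -1.18 to -1.08), RRM1 (0.19 against -0.19 to -0.14) and RRM2 (0.62 against 0.07 to 0.15). HH stood apart for PCDH8, at 5.12 against -0.55 to 0.01, and for PYCARD, at 2.61 against 0.45 to 0.71. SCN3A in H9 rests on 0 and 1 counts.

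The azacitidine effect over all doses was unequal over the lines by edgeR's F test for MAP3K6 (adjusted p = 0.00149), C1orf54 (0.00359), LZTS2 (0.00359), PYCARD (0.00462), KATNAL2 (0.00653) and CAMK2B (0.00672), which were named for that test, and for LAT (0.0235). KATNAL2 fell most in H9, from 68 to 14 counts, and CAMK2B rose from 0 to 38 counts in PF382 and from 1 to 45 in HH.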

How the results depend on the processing

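Of 1462 values of named genes under the alternatives, 1061 kept direction and side of the threshold, 393 lost the call, 8 gained one and 0 reversed. The counts of higher and lower genes stayed within 1.5 times under RLE scaling, DESeq2, limma-voom, no filter and a mean of at least 1 CPM. Other libraries in the fit moved them: the 8 compared libraries alone gave 0 and 0 (2261 at an unadjusted p under 0.05), the 16 libraries of 4 treatments 197 and 108, and the 16 without romidepsin 1028 and 725. With no replicate block (cell line left out) edgeR called 1 and 0, with 419 at an unadjusted p under 0.05. Leaving out 1 line gave 270 to 464 higher and 111 to 251 lower, and 75.1% of calls were higher without H9 against 64.3% with all lines. Chosen after seeing the data, limma-voom on the 8 libraries gave 48 and 26, and edgeR on them with the genes tested in all 32 gave 22 and 8, or 23 and 9 without robust estimation. DESeq2 on them gave 553 and 330. On romidepsin the main 2515 became 39 in its 8 libraries alone, 947 in the 16 of 4 treatments, 1 with no replicate block and 1309 to 1671 without 1 line. Genes unequal over lines numbered 1904, and 632 to 1294 without 1 line. Of the 102 named genes that were called, 48 kept the call without each line. The cause of these shifts was not tested. Genes with few counts have wide intervals, which depth limits.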
